A study of Mus musculus with 3 samples.

Results

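The genes described here are the nuclear genes of oxidative phosphorylation, chosen by symbol from the 24063 genes counted in the mouse blastocyst RNA-Seq. The rule took every symbol that starts with Nduf followed by a, b, c, s or v, with Uqc, with Cox and a digit from 4 to 8, or with Atp5, and the symbols Sdha to Sdhd, and left out numbered pseudogenes. It found 95 genes, of which 45 fall by symbol in complex I, 4 in complex II, 11 in complex III, 18 in complex IV and 17 in complex V. By known function 82 of them encode subunits. The other 13 are Ndufaf1 to Ndufaf7, Uqcc1 to Uqcc3, Atp5s, Atp5sl and Ndufa4l2, mostly assembly factors. Ndufa4 was kept in complex I by its symbol, although its protein is known as a subunit of complex IV.

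The comparison used 3 libraries: 1 from C57BL/6 (B6) and 2 from NOD, an inbred strain that develops autoimmune diabetes spontaneously. No animal was treated, and ages, litters and sexes are not given in the sources used here. The labels name whole blastocysts as the input, whereas the methods name single inner cell masses (ICMs). The question was which transcripts differ between diabetes-prone and B6 embryos before implantation.

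Oxidative phosphorylation takes place in the inner mitochondrial membrane. Complexes I and II pass electrons from NADH and succinate to ubiquinone, complex III passes them on to cytochrome c, and complex IV to oxygen. Complexes I, III and IV pump protons, and complex V, the ATP synthase, uses the return of those protons to make ATP. Most subunits are encoded in the nucleus and a few in mitochondrial DNA, and the blastocyst is known to use more oxygen than earlier embryos. The table held 0 mitochondrially encoded genes, so the balance between nuclear and mitochondrial transcripts could not be described.

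The libraries held 12505685 (B6), 33891715 (NOD 1) and 36171013 (NOD 2) counts. After TMM scaling, 1 count was worth 0.0734 counts per 1000000 (CPM) in B6 and 0.0303 and 0.0294 CPM in the NOD libraries, so low genes were measured less well in B6. Among the marker genes, 9 ICM genes summed to 494, 621 and 891 CPM in B6, NOD 1 and NOD 2, and 9 trophectoderm genes, the markers of the outer layer, to 3131, 1840 and 1656 CPM. The ICM genes were split, 5 being higher and 4 lower in both NOD libraries, with Zfp42 and Tdgf1 up-regulated and Sox2 down-regulated. Elf5, a trophectoderm factor, had 0, 7 and 10 counts. Of the 8 trophectoderm genes that could be tested, 7 were lower in both NOD libraries (87.5%, beside 39.4% of all genes tested). None of the 8 passed both the edgeR threshold, an adjusted p under 0.05, and the 2-fold change asked for here. Of the 8, 5 had an unadjusted p under 0.05, beside 5763 of all 14456 genes tested. Krt18 had an edgeR adjusted p of 0.0453 with a log2 fold change of -0.82. The 5 primitive endoderm genes summed to 391, 118 and 158 CPM, mostly from Gata6, which was down-regulated (385, 91.5 and 130 CPM), while Pdgfra was up-regulated (5.50, 23.6 and 24.6 CPM). Of 7 leukocyte genes, Ptprc, Lyz2, Fcer1g and Cd79a had 0 counts in every library, and the 7 summed to at most 1.03 CPM. The 7 cumulus and granulosa genes summed to at most 8.87 CPM. Several marker genes moved with strain, and the part of the inner and outer cells in the results given here was not tested. In bulk libraries fewer cells of a type and less RNA per cell cannot be told apart.

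The oxidative phosphorylation genes as a whole were about as abundant in NOD as in B6, and single genes moved in both directions. The 95 genes summed to 26244 (B6), 26327 (NOD 1) and 29245 (NOD 2) CPM, a ratio of NOD to B6 of 1.06 for the mean and of 1.003 and 1.11 for the libraries taken singly. B6 and NOD 1 differed by less than NOD 1 and NOD 2 did. With counts scaled by library total alone the ratio was 0.930, so no direction could be given for the sum.

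The filter on low counts kept 91 of the 95 genes. Cox4i2, Cox6a2 and Cox8b had 0 counts in every library, and Ndufa4l2 had 6, 1 and 2 counts. Among the 91, 12 were up-regulated and 5 down-regulated in NOD (edgeR quasi-likelihood test, adjusted p under 0.05 and at least 2-fold), and 74 did not pass. These counts became 8 and 5 with library totals alone, 7 and 4 with upper-quartile factors and 16 and 8 with DESeq2. They were 0 and 0 with limma-voom or without the filter on low counts, as were the counts over all genes. In each of these settings 36 of the genes still had an unadjusted p under 0.05. Over all genes that held for 3924 of 14456 with limma-voom and 5568 of 16765 without the filter. In edgeR with the filter it held for 40 of the 91 genes, beside 5763 of all 14456. Over all 14456 genes tested, 10.3% were up-regulated and 7.39% down-regulated, 17.7% in either direction. The 12 genes are 13.2% and the 5 genes 5.49% of the genes tested, so both shares were near those of all genes. The median log2 fold change was 0.22, beside 0.26 over all genes tested. Scaling by library total alone moved these medians to 0.03 and 0.07, and the up-regulated share of all calls from 58.1% to 47.8%, and each change is to be set beside these medians. Both NOD libraries were higher than B6 for 45 genes and both lower for 34 (40 and 42 with library totals alone), beside 45.3% and 39.4% of all genes tested. NOD 1 and NOD 2 ranked the 91 genes in nearly the same order (Spearman's rho 0.977 across genes), and each NOD library was less like B6 (0.846 and 0.832). These correlations are descriptions across genes that share their libraries, and over all genes tested the values were 0.955, 0.842 and 0.824. A gene is called up- or down-regulated in what follows only where it passed this test.

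**Figure D1:**
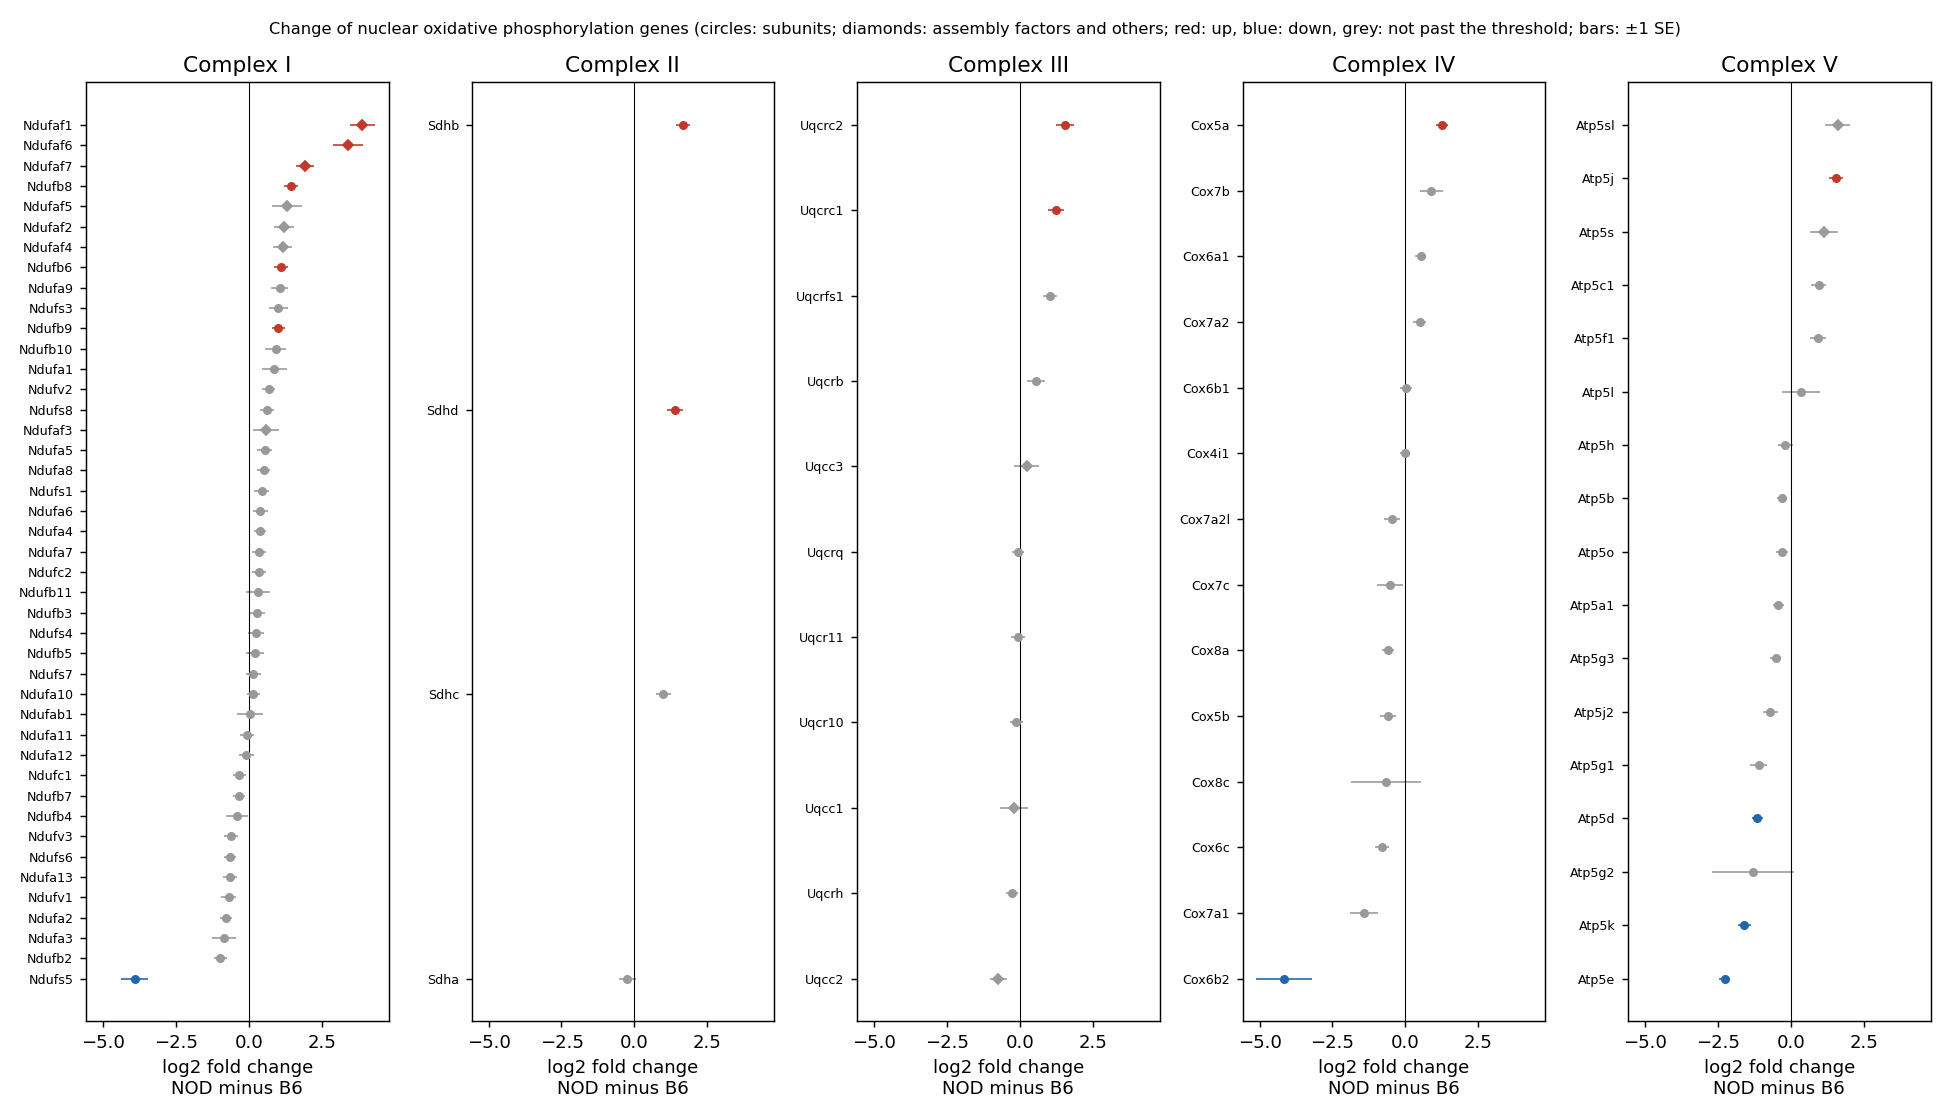
Log2 fold change (NOD minus B6, x axis) of 89 of the 91 genes tested, 1 panel per complex, with bars of 1 standard error, red for up-regulated, blue for down-regulated and grey for genes that did not pass. Cox7b2, with 0 counts in B6, is among the genes not plotted. Complex V holds 3 of the 5 blue points and complex I 6 of the 12 red ones.

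The complexes differed in their summed levels. Complex II was at 450 CPM in B6 and at 937 and 1026 CPM in NOD, complex I at 8448 CPM and at 9515 and 10524 CPM, complex III at 3553 CPM and at 4100 and 4835 CPM, and complex IV at 4837 CPM and at 5287 and 5600 CPM. Complex V went the other way, from 8956 CPM in B6 to 6487 and 7261 CPM in NOD. Both NOD sums lay on the same side of the 1 B6 library for every complex on this scale. That is the usual outcome here, since 45.3% of all genes tested lay above B6 in both NOD libraries and 39.4% below. A sum follows its most abundant genes, and the median log2 fold change went the other way for complex III (-0.06, both NOD libraries lying above B6 for 4 of 11 genes and below it for 3) and for complex IV (-0.46, above for 6 of 15 and below for 8), beside 45.3% above and 39.4% below over all genes tested. With library totals alone complex II was still higher, at 1.86 and 1.97 times B6, and complex V still lower, at 0.648 and 0.700 times. Complexes I and III then stood at 1.01 and 1.08 and at 1.03 and 1.18 times B6, and complex IV turned slightly lower, at 0.978 and 0.9997 times. These sums have no test, since permuting 3 libraries exactly gives no p smaller than 1 in 3.

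**Figure D2:**
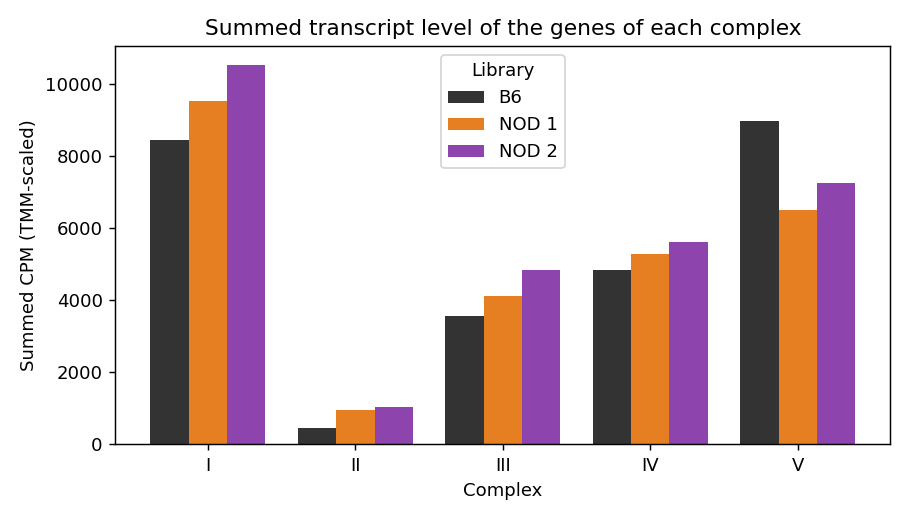
Summed TMM-scaled CPM (y axis, from 0) of the genes of each complex (x axis), 1 bar per library. The sums of complexes I to IV stood higher in both NOD libraries than in B6 on this scale (complex IV not with library totals alone), although the median log2 fold change was -0.06 in complex III and -0.46 in complex IV, and the sum of complex V stood lower, at 6487 and 7261 CPM beside 8956 CPM.

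Complex I, the NADH dehydrogenase, is the largest complex, and its genes were up-regulated in 6 (13.6%, beside 10.3% of all genes) and down-regulated in 1 (2.27%, beside 7.39%) of 44 cases tested, and their median log2 fold change was 0.34. Among the 37 subunits 3 were up-regulated, a share of 8.11% that lies under the one of all genes. The largest increases were not in subunits but in assembly factors, proteins that help build the complex and are not part of it. All 7 of Ndufaf1 to Ndufaf7 were higher in both NOD libraries (6 of 7 with library totals alone), and 3 of them (42.9%) were up-regulated, beside 45.3% and 10.3% of all genes tested. Their median was 1.29, against 0.24 for the 37 subunits. Log2 fold change fell with the level in B6 (Spearman's rho -0.32 over the 91 genes tested and -0.46 over all genes tested). The Ndufaf genes were at 5.28 to 54.4 CPM in B6, and the part of level in this contrast was not tested. Ndufaf1 (NM_027175, chr2:119655451-119662798), a factor for the membrane arm, had 72 counts in B6 and 2514 and 2766 in NOD, or 5.28, 76.1 and 81.3 CPM. The NOD mean was 78.7 ± 3.69 CPM (SD, n = 2), and B6 lay far below both. The log2 fold change was 3.89 (SE 0.42, edgeR adjusted p = 0.0203). Ndufaf6 (NM_001085493, chr4:11051046-11076205) also had 72 counts in B6 and had 1460 and 2269 in NOD, which is 5.28, 44.2 and 66.7 CPM. Its log2 fold change was 3.39 (SE 0.52, edgeR adjusted p = 0.0261), and the NOD libraries differed more from each other than for Ndufaf1. Ndufaf7 (NM_028611, chr17:78937135-78948052), a methyltransferase of the mitochondrial matrix, was at 33.0, 131 and 120 CPM, with a log2 fold change of 1.93 (SE 0.32, edgeR adjusted p = 0.0290). Ndufaf2 (35.7, 90.6 and 73.7 CPM), Ndufaf4 (54.4, 138 and 105 CPM), Ndufaf5 (7.05, 16.7 and 17.8 CPM) and Ndufaf3 (29.9, 55.6 and 34.6 CPM) did not pass, with edgeR adjusted p from 0.0751 to 0.371.

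Of the complex I subunits, Ndufb8, Ndufb6 and Ndufb9, accessory subunits of the membrane arm, were up-regulated. Ndufb8 (NM_026061, chr19:44550254-44555415) was at 277 CPM in B6 and at 694 and 813 CPM in NOD, with a log2 fold change of 1.44 (SE 0.23, edgeR adjusted p = 0.0283). Ndufb6 (NM_001033305, chr4:40270663-40279368) was at 150, 328 and 313 CPM, with a log2 fold change of 1.10 (SE 0.24, edgeR adjusted p = 0.0435). Ndufb9 (NM_023172, chr15:58933810-58939489) was at 260, 495 and 545 CPM and just reached the fold threshold, with a log2 fold change of 1.002 (SE 0.22, edgeR adjusted p = 0.0465). Ndufb2, another subunit of this arm, fell just short of it in the other direction, at 309, 150 and 163 CPM (log2 fold change -0.98, edgeR adjusted p = 0.0495). Over the 10 Ndufb genes the log2 fold changes ran from -0.98 to 1.44 with a median of 0.29, and over the 13 Ndufa subunits from -0.86 to 1.06 with 0 calls in edgeR and 3 unadjusted p under 0.05. The core subunits of the matrix arm, which carries electrons from NADH to ubiquinone, that are described here did not pass. Ndufs3 was at 50.6 CPM in B6 and 93.1 and 111 CPM in NOD (log2 fold change 1.01, edgeR adjusted p = 0.0895). Ndufv1, which binds NADH, was at 318, 173 and 219 CPM (-0.69, adjusted p = 0.118). The log2 fold changes of Ndufv2 (0.68), Ndufs8 (0.62), Ndufs1 (0.43) and Ndufs7 (0.16) had edgeR adjusted p from 0.0984 to 0.657. Ndufa4 was at 379, 470 and 516 CPM (log2 fold change 0.38, edgeR adjusted p = 0.250).

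Ndufs5 (NM_001030274, chr4:123712710-123718186), a small accessory subunit, was the only complex I gene that was down-regulated, and its value depends on where its reads were placed. It had 539 counts in B6 and 84 and 91 in NOD, or 39.6, 2.54 and 2.67 CPM. The NOD mean was 2.61 ± 0.0939 CPM (SD, n = 2), with a log2 fold change of -3.92 (SE 0.46, edgeR adjusted p = 0.0215). The transcript of Ndufs5 shares 41.2% of its 50-base words, the length of a read, with 1 other annotated gene, the processed pseudogene BC002163 (NR_002445, chr16:42955580-42956079). BC002163 held more counts than Ndufs5 in every library (1406, 7428 and 7271), and was itself up-regulated in NOD (log2 fold change 1.09, edgeR adjusted p = 0.0486). Both rows together were at 143 CPM in B6 and at 227 and 216 CPM in NOD, and the pseudogene took 72.3% of the sum in B6 and 98.9% and 98.8% in NOD. With the rows added, the log2 fold change was 0.64 (edgeR adjusted p = 0.124). The fall of Ndufs5 and the rise of its copy therefore cannot be told apart from a different placing of the same reads in the strains.

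**Figure D3:**
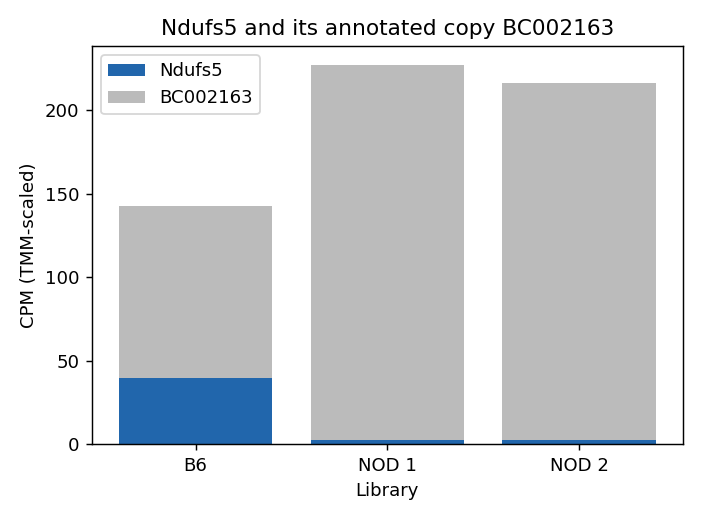
TMM-scaled CPM (y axis, from 0) of Ndufs5 (blue) stacked under that of its annotated copy BC002163 (grey) in each library (x axis). The blue part shrank from 39.6 CPM in B6 to 2.54 and 2.67 CPM in NOD, while the whole bar was taller in NOD, at 227 and 216 CPM beside 143 CPM.

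Complex II, succinate dehydrogenase, has only 4 subunits, all nuclear, and also works in the TCA cycle. Sdhb, Sdhc and Sdhd, the iron-sulfur subunit and the membrane anchors, were higher in both NOD libraries (75% of the 4, beside 45.3% of all genes tested). Sdhb and Sdhd were up-regulated (50% of the 4, beside 10.3% of all genes). Sdhb (NM_023374, chr4:140961271-140979192) was at 141 CPM in B6 and at 430 and 461 CPM in NOD, a mean of 446 ± 22.3 CPM (SD, n = 2). Its log2 fold change was 1.66 (SE 0.24, edgeR adjusted p = 0.0242). Sdhd (NM_025848, chr9:50596340-50603849) was at 87.3, 208 and 251 CPM, with a log2 fold change of 1.39 (SE 0.28, edgeR adjusted p = 0.0385). Sdhc was at 104, 206 and 208 CPM and missed the threshold (log2 fold change 0.995, edgeR adjusted p = 0.0562). Sdha, the flavin subunit that oxidises succinate, was at 118, 93.7 and 106 CPM (-0.24, adjusted p = 0.547). Read per kilobase, Sdhb stood at 3.20 times Sdha in B6 and at 12.3 and 11.6 times in the NOD libraries.

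In complex III, the cytochrome bc1 complex, 2 of the 11 genes tested were up-regulated (18.2%, beside 10.3% of all genes) and 0 down-regulated in edgeR, and both encode large core subunits. Uqcrc1, Uqcrc2 and the Rieske iron-sulfur protein Uqcrfs1 were higher in both NOD libraries, with a median log2 fold change of 1.25, and Uqcrc1 and Uqcrc2 were up-regulated. Over all 11 genes, 4 (36.4%) were higher in both NOD libraries, beside 45.3% of all genes tested. Uqcrc1 (NM_025407, chr9:108936648-108949641) was at 393 CPM in B6 and at 789 and 1078 CPM in NOD (log2 fold change 1.25, SE 0.28, edgeR adjusted p = 0.0456). Uqcrc2 (NM_025899, chr7:120635189-120659523) was at 163, 393 and 552 CPM (log2 fold change 1.54, SE 0.31, edgeR adjusted p = 0.0391). For both genes NOD 2 stood above NOD 1, and the gap to B6 was larger than the gap between the NOD libraries. The Uqcrc2 span overlaps Pdzd9, which had 269, 128 and 137 counts, a small number beside those of Uqcrc2. Uqcrfs1 was at 253, 472 and 562 CPM and just missed the threshold (log2 fold change 1.03, edgeR adjusted p = 0.0502). The 5 small subunits Uqcrb, Uqcrh, Uqcrq, Uqcr10 and Uqcr11 gave 0 calls in edgeR and 0 unadjusted p under 0.05, with log2 fold changes from -0.27 to 0.55. The assembly factors Uqcc1, Uqcc2 and Uqcc3 did not pass either, with log2 fold changes of -0.19, -0.74 and 0.23, and for Uqcc1 and Uqcc3 the NOD libraries lay on either side of B6.

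In complex IV, cytochrome c oxidase, 1 of the 15 genes tested was up-regulated (6.67%, beside 10.3% of all genes) and 1 down-regulated (6.67%, beside 7.39%), with a median log2 fold change of -0.46. Cox5a (NM_007747, chr9:57521232-57532426), an early-assembling nuclear subunit, was up-regulated from 508 CPM in B6 to 1214 and 1223 CPM in NOD. Its log2 fold change was 1.26 (SE 0.20, edgeR adjusted p = 0.0268), and 32.0% of its 50-base words also occur in other annotated transcripts. Cox5b, a zinc-binding subunit, was at 141, 94.8 and 91.1 CPM (log2 fold change -0.60, edgeR adjusted p = 0.166). Cox4i1, which contacts the catalytic core, hardly differed between the libraries, at 1109, 1072 and 1126 CPM (-0.01, adjusted p = 0.963). Cox6c was at 579, 291 and 366 CPM and Cox8a at 608, 394 and 408 CPM, both lower in NOD without passing (adjusted p = 0.0756 and 0.0984). Cox7c, at 20.4, 15.3 and 12.9 CPM, also shares words with annotated pseudogenes. With the counts of Gm10012 and Gm12338 added, its log2 fold change went from -0.53 to -0.70, neither past the threshold in edgeR (adjusted p = 0.410 and 0.196).

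Several complex IV subunits come in paralog pairs of which one member is known from muscle, testis or low oxygen, and for Cox4i, Cox6a and Cox8 the blastocyst libraries held the ubiquitous member almost alone. Cox4i1 and Cox6a1 made up 100% of their groups in every library, because Cox4i2 and Cox6a2 had no count. Cox8a made up 99.6% of its group in B6 and 99.5% and 99.8% in NOD, with 0 counts for Cox8b and 28, 57 and 29 counts for Cox8c, a testis form. Cox8c stood at 2.06, 1.72 and 0.852 CPM (edgeR adjusted p = 0.691). In the Cox6b pair the testis form Cox6b2 (NR_110411, chr7:4751792-4753094) was counted as well and was down-regulated. It had 797 counts in B6 but 183 and 35 in NOD, or 58.5, 5.54 and 1.03 CPM. Its log2 fold change was -4.15 (SE 0.96, edgeR adjusted p = 0.0486). NOD 1 stood at 5.38 times NOD 2 here, and the log2 fold change was -3.40 with NOD 1 alone and -5.81 with NOD 2 alone. Its share of Cox6b reads per kilobase was 8.84% in B6 and 0.899% and 0.165% in NOD, while the ubiquitous Cox6b1 stayed at 537, 544 and 553 CPM (log2 fold change 0.03, edgeR adjusted p = 0.922).

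The Cox7 paralogs varied among libraries too, with 0 calls. Cox7a1, the heart and muscle form, was at 46.8, 12.6 and 22.2 CPM (log2 fold change -1.42, edgeR adjusted p = 0.0993) and made up 18.9% of the Cox7a group in B6 and 4.94% and 7.63% in NOD. Cox7a2, the widely expressed form, took 65.1% of the group in B6 and 84.0% and 82.2% in NOD, at 334, 444 and 498 CPM (edgeR adjusted p = 0.169). Cox7a2l, which helps complexes III and IV associate, was at 126, 89.2 and 94.2 CPM (edgeR adjusted p = 0.267). Cox7b was at 122, 168 and 287 CPM (edgeR adjusted p = 0.168). Cox7b2 had 202 counts in NOD 1, 1 in NOD 2 and 0 in B6, so it passed the filter on low counts through NOD 1 alone, and it was not called (edgeR adjusted p = 0.203). Cox7b2, Cox6b2 and Cox8c were the genes whose NOD libraries differed most. Ndufa4l2, a paralog of Ndufa4 known from low oxygen, had only 6, 1 and 2 counts, a ratio of NOD to B6 of 0.102 (exact 95% interval for counting error, 0.0164 to 0.476).

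Complex V was the only complex with more down-regulated than up-regulated genes, 3 (17.6%, beside 7.39% of all genes) against 1 (5.88%, beside 10.3%) of 17 tested, with a median log2 fold change of -0.30. Among its 15 subunits 11 were lower in both NOD libraries (73.3%, beside 39.4% of all genes tested) and 3 higher (beside 45.3%). Atp5e (NM_025983, chr2:174461075-174464101), the epsilon subunit at the foot of the F1 central stalk, had the largest fall in complex V. Its counts were 15663 in B6 and 7869 and 8195 in NOD, or 1150, 238 and 241 CPM. The NOD mean was 239 ± 1.95 CPM (SD, n = 2), and the log2 fold change of -2.26 (SE 0.19, edgeR adjusted p = 0.0196) had the smallest adjusted p of all the oxidative phosphorylation genes. Atp5d (NM_025313, chr10:80142315-80145818), the delta subunit of the same stalk, was at 1150, 488 and 554 CPM, with a log2 fold change of -1.14 (SE 0.20, edgeR adjusted p = 0.0316). Atp5c1, the gamma subunit that forms the axis of that stalk, went the other way, at 323, 559 and 695 CPM, without passing (log2 fold change 0.96, edgeR adjusted p = 0.0602). Atp5k (NM_007507, chr5:108433253-108434378), the small membrane subunit e, fell from 527 CPM to 161 and 189 CPM (log2 fold change -1.59, SE 0.23, edgeR adjusted p = 0.0242). In B6 Atp5e was the most abundant of all 95 transcripts per kilobase, at 2811 CPM per kilobase, and in NOD it was at 582 and 589 CPM per kilobase. Atp5k went from 1842 to 563 and 659 CPM per kilobase.

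The catalytic subunits did not pass. Atp5b, the beta subunit that makes ATP, was at 1911, 1504 and 1603 CPM (log2 fold change -0.30, edgeR adjusted p = 0.251), and Atp5a1, the alpha subunit, at 1085, 812 and 799 CPM (-0.43, adjusted p = 0.155). Atp5j (NM_016755, chr16:84827871-84835574), subunit F6 of the peripheral stalk, was the up-regulated gene of complex V, from 300 CPM in B6 to 803 and 946 CPM in NOD. Its log2 fold change was 1.54 (SE 0.23, edgeR adjusted p = 0.0257). The span of Atp5j overlaps that of Gabpa, a transcription factor of oxidative phosphorylation genes, and Gabpa had 546, 5412 and 10226 counts and was itself up-regulated (log2 fold change 2.53, edgeR adjusted p = 0.0354). Reads were counted on both strands together, so reads on bases that the genes share cannot be told apart, although Atp5j held 4085, 26550 and 32173 counts. Atp5f1 of the same stalk was at 186, 308 and 400 CPM and did not pass (log2 fold change 0.93, edgeR adjusted p = 0.0767).

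The c ring, the rotor in the membrane, is a single protein encoded by the paralogs Atp5g1, Atp5g2 and Atp5g3, and all 3 were lower in both NOD libraries, as were 39.4% of all genes tested, with 0 calls in edgeR and 1 unadjusted p under 0.05. Atp5g3 was at 1145, 738 and 857 CPM (log2 fold change -0.52, edgeR adjusted p = 0.127) and Atp5g1 at 119, 55.5 and 54.7 CPM (-1.11, adjusted p = 0.0627). Atp5g2 had only 21, 15 and 27 counts, a ratio of NOD to B6 of 0.406 (exact 95% interval for counting error, 0.235 to 0.722). Atp5g2 shares 87.4% and Atp5g1 66.0% of its 50-base words with annotated pseudogenes and Atp5g3 shares 0, so the levels and shares of the first 2 are uncertain. Atp5g3 supplied 91.8% of the reads per kilobase of the 3 genes in B6 and 94.0% and 94.8% in NOD. Atp5s and Atp5sl, which share the symbol but are not subunits, were at 10.9, 27.3 and 20.9 CPM and at 21.8, 55.5 and 77.1 CPM (edgeR adjusted p = 0.145 and 0.0612).

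**Figure D4:**
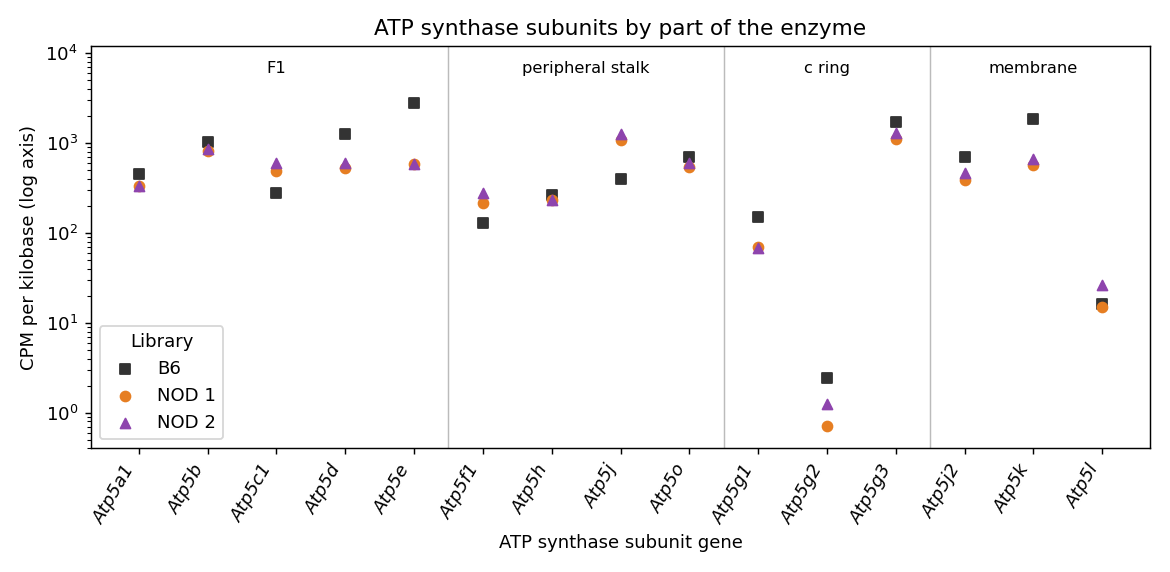
Level of each of the 15 ATP synthase subunit genes (CPM per kilobase, log axis), ordered by part of the enzyme, with 1 mark per library. The B6 square lies above both NOD marks for Atp5e, Atp5d and Atp5k and for all 3 c ring genes, and below them for Atp5j, Atp5c1 and Atp5f1.

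The log2 fold changes were also set beside the transcript length listed in the table, which lay within a ratio of 1.25 of the length of the matched GENCODE transcript for 77 of the 95 genes. The Spearman correlation of log2 fold change with length was 0.430 over the 91 genes tested and -0.181 over all genes tested, a description across genes only. Of 37 oxidative phosphorylation genes under 600 bases 1 was up-regulated (2.70%) and 4 were down-regulated (10.8%), with a median log2 fold change of -0.34, beside 2.99%, 7.97% and -0.25 for the 502 genes of that length in the table. The 4 include Ndufs5, whose fall cannot be told apart from a different placing of reads. Of 30 genes from 600 to under 1200 bases 6 were up-regulated and 1 was down-regulated (20% and 3.33%, median 0.50), beside 16.5%, 5.07% and 0.75 for 1579 genes. The 24 longer genes had 5 increases (20.8%) and 0 decreases in edgeR with a median of 0.81, beside 9.76%, 7.67% and 0.20 for 12375 genes. The shares in the 2 shorter classes were near those of all genes of the same length. Among the 24 longer genes, 7 are not subunits. For subunits alone the medians were -0.30, 0.42 and 0.24 from the shortest to the longest class, so they did not rise steadily with length. The shortest class had a median below 0 both here and over the table, and the part of length in the single results was not tested.

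**Figure D5:**
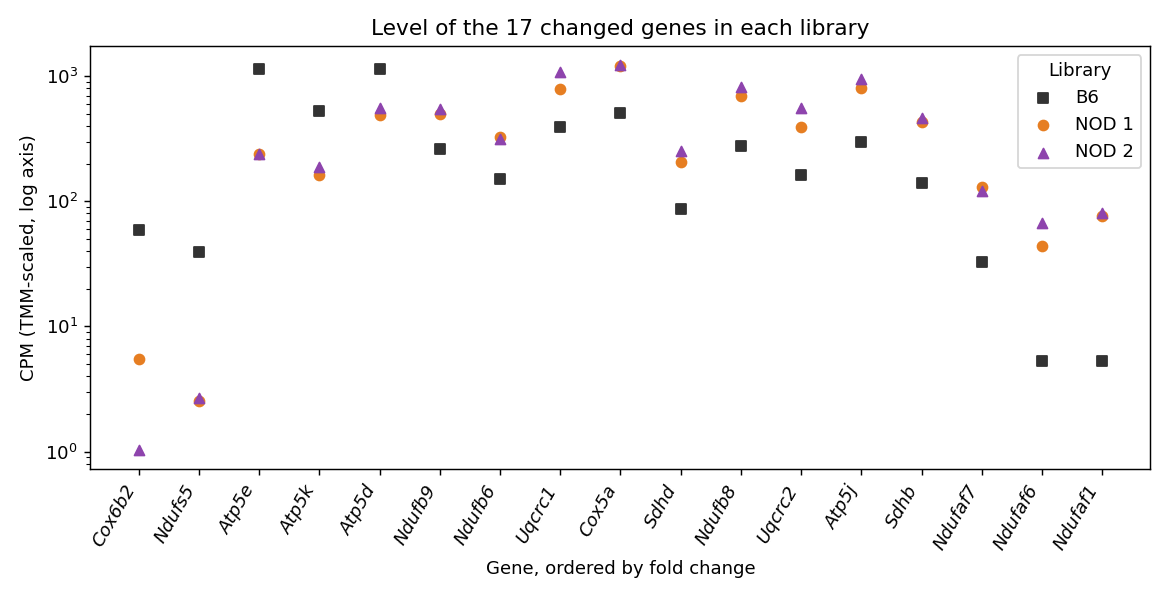
TMM-scaled CPM (log axis) of the 17 up- or down-regulated genes in each library, ordered by fold change. NOD 1 and NOD 2 lie close together for most genes and apart for Cox6b2, at 5.54 and 1.03 CPM.

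The promoters were searched for the letters of factors known to drive these genes. RefSeq promoters (GRCm38.p6) were found for 78 of the 95 genes, and 250 bases before each listed start were searched on both strands, a gene with several starts being counted once if any of them had a match. The core that NRF1 binds, GCGCA and GCGC with any base between them, was found for 15 of the 78 genes (19.2%), beside 4.23% of 27025 genes. The 27025 are all genes with a RefSeq promoter, not only those tested here, so the shares compare unlike sets. CCGGAAGT, bound by GABP and other ETS factors, was found for 3 (3.85%, beside 3.23%), and AAGATGGC, bound by YY1, for 2 (2.56%, beside 1.83%). Of the 15 genes with the NRF1 letters, 1 was up-regulated (6.67%, beside 10.3% of all genes tested) and 2 were down-regulated (13.3%, beside 7.39%), with a median log2 fold change of -0.19. The values were 8 (12.9%), 3 (4.84%) and 0.26 for the 62 tested genes with a promoter and without these letters. The 2 down-regulated genes with the letters include Ndufs5, whose fall cannot be told apart from a different placing of reads. Without Ndufs5, only Atp5k is left on that side. The stretches of 30 bases around the match are shown for the called genes Sdhd, Ndufs5 and Atp5k and for the assembly factor Ndufaf4, with the NRF1 letters in capitals.
Sdhd, chr9:50603909-50603938, minus strand: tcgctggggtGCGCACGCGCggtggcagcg
Ndufs5, chr4:123718265-123718294, minus strand: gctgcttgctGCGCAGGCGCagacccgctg
Atp5k, chr5:108434430-108434459, minus strand: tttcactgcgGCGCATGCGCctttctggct
Ndufaf4, chr4:24897960-24897989, plus strand: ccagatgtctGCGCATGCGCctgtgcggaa
The match started 79 bases before the RefSeq start for Sdhd, 98 for Ndufs5, 50 for Atp5k and 113 for Ndufaf4, the start of Atp5k in this RefSeq release lying outside the span that the count table lists. Of these, Sdhd was up-regulated, Ndufs5 and Atp5k were down-regulated and Ndufaf4 did not pass. The call of Ndufs5 depends on the placing of reads (log2 fold change 0.64 with its copy BC002163 added). Leaving Ndufs5 aside, the same letters stood before an up-regulated gene, Sdhd, and a down-regulated gene, Atp5k. The window of Sdhd also holds an exon of Timm8b.

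The regulators of mitochondrial biogenesis moved in both directions. Of 19 tested 4 were up-regulated (21.1%, beside 10.3% of all genes) and 2 down-regulated (10.5%, beside 7.39%), with a median log2 fold change of 0.41. Gabpb1, the partner of Gabpa, was at 20.4, 62.8 and 74.3 CPM (log2 fold change 1.75, edgeR adjusted p = 0.0448). Tefm, a mitochondrial transcription elongation factor, was at 15.6, 71.7 and 69.4 CPM (2.18, adjusted p = 0.0315), and Ssbp1, which coats single-stranded mitochondrial DNA, at 85.6, 192 and 190 CPM (1.16, adjusted p = 0.0462). The coactivator Ppargc1b fell from 85.3 CPM in B6 to 7.75 and 6.00 CPM in NOD (log2 fold change -3.63, edgeR adjusted p = 0.0203), and its partner receptor Esrra from 51.8 CPM to 11.5 and 7.76 CPM (-2.43, adjusted p = 0.0329). Ppargc1a had 1, 0 and 0 counts.

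Assembly factors outside the symbol rule gave 5 increases (13.2%, beside 10.3% of all genes) and 1 decrease (2.63%, beside 7.39%) among 38 tested, with a median log2 fold change of 0.16, lower than the 1.29 of the Ndufaf genes. Tmem126b, a partner of Ndufaf1 in building the membrane arm of complex I, was at 5.43, 44.8 and 49.3 CPM (log2 fold change 3.11, edgeR adjusted p = 0.0242), and its neighbour Tmem126a at 8.44, 32.7 and 43.2 CPM (2.17, adjusted p = 0.0430). The level of Tmem126b in B6 was close to those of Ndufaf1 and Ndufaf6. Tmem70, which helps assemble the ATP synthase c ring, was at 173, 391 and 442 CPM (1.27, adjusted p = 0.0354). Coa7 (log2 fold change 1.32) and Cox18 (1.14), both for complex IV, were up-regulated as well, and Coa5, also for complex IV, was down-regulated, at 250, 98.5 and 92.4 CPM (-1.39, adjusted p = 0.0319).

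Of the 19 other chain, ubiquinone and ATP synthase proteins tested, 3 were up-regulated (15.8%, beside 10.3% of all genes) and 0 down-regulated in edgeR, with a median log2 fold change of 0.24. They are enzymes of ubiquinone synthesis. The share of 15.8% includes Pdss2, which could only come out higher in NOD, and without it the calls are Coq7 and Coq5 alone. Coq7 was at 77.5, 261 and 281 CPM (log2 fold change 1.80, edgeR adjusted p = 0.0242) and Coq5 at 67.3, 159 and 169 CPM (1.28, adjusted p = 0.0437). Pdss2, which makes the ubiquinone side chain, had 2, 362 and 256 counts (edgeR adjusted p = 0.0307), so it passed the filter on low counts through the NOD libraries alone and had to differ. The nuclear cytochrome genes Cyc1 (449, 551 and 661 CPM) and Cycs (21.4, 7.65 and 9.02 CPM) did not pass (edgeR adjusted p = 0.223 and 0.108).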

How the data were processed

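The authors prepared SMART-Seq V4 libraries with 19 PCR cycles, sequenced them as single reads of 50 bases, and used STAR for alignment to mm10 and HOMER for counting. The deposited values are raw counts per RefSeq gene, on exons of both strands together, with 1 transcript per gene. The Length column of the deposited table gives other values, a length in bases per gene, on which the per-kilobase values rest. Counts without molecular identifiers are not independent molecules, so intervals cover counting error only, and 3 counts correspond to 0.220 CPM in B6 and to 0.0908 and 0.0882 CPM in NOD 1 and NOD 2. How multiply aligned reads were treated is not given in the sources used here.

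Genes were filtered with filterByExpr (minimum count 10), scaled by TMM and tested with the edgeR 4.0.16 quasi-likelihood test in R 4.3.3, strain being the only term, with Benjamini-Hochberg adjustment over 14456 genes, and calls needed adjusted p < 0.05 and a 2-fold change. B6 had 1 library, so the spread came from the NOD libraries and from sharing across genes (residual df 1, prior df 3.78, median biological coefficient of variation 0.37). The labels do not say that the NOD libraries came from separate litters, and p-values measure only the spread between these libraries. The genes and lists were chosen with earlier results of these data known. Named were all called genes, the paralogs, the catalytic and redox subunits, the 3 genes whose NOD libraries differed most and up to 6 called genes a list, except 1 gene that is counted but not reported here, and other genes were named after their values were seen. Shared 50-base words and exons were taken from GENCODE M21, and promoters from RefSeq GRCm38.p6. DESeq2 1.42.0 and limma 3.58.1 (voom) were alternatives. Protein sequences were not used here.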

Additional observations from a re-analysis of the deposited data

How the results depend on the processing

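All 17 called oxidative phosphorylation genes kept their direction under every alternative scaling, filter and tool that was run, with 1 exception. Ndufs5 went from -3.92 to 0.64 (adjusted p = 0.124) when the counts of its copy BC002163 were added, an alternative chosen after seeing the data. The calls were less stable. The counts of 12 up- and 5 down-regulated genes became 7 and 4 with upper-quartile factors, 8 and 5 with library totals alone, 11 and 6 with the size factors of DESeq2 and 16 and 8 with DESeq2, whose calls over all genes numbered 4210 instead of 2552. Without the filter on low counts and with limma-voom both counts were 0, as were those over all genes. These genes had 36 unadjusted p under 0.05 in each, beside 40 in edgeR with the filter, and their smallest adjusted p were 0.0649 and 0.0631. Library totals alone lost the calls of Cox6b2, Ndufb6, Ndufb9, Sdhd and Uqcrc1, and upper-quartile factors those and Uqcrc2. Leaving out the genes that share 20% or more of their words gave 8 and 4, and subunits alone 9 and 5. The median log2 fold change of 0.22 became 0.032 with library totals alone and 0.038 for subunits alone, and ran from 0.050 to 0.26 when either NOD library was left out. The summed ratio of 1.06 became 0.930 with library totals alone and ran from 1.003 to 1.11. Leaving out a NOD library left 1 library against 1, a value with no test. The planned search of shared words in the genome was not run, and annotated transcripts were used instead. No paired analysis was possible because B6 and NOD share only replicate number 1.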

Other observations

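The enzymes that feed the respiratory chain and the carriers around it lie outside the symbol rule. Of 18 genes of the TCA cycle and pyruvate dehydrogenase tested, 6 were up-regulated (33.3%, beside 10.3% of all genes tested) and 2 down-regulated (11.1%, beside 7.39%) in NOD, with a median log2 fold change of 0.94, beside 0.26 over all genes tested. Sucla2, a subunit of succinyl-CoA synthetase, was at 206 CPM in B6 and at 657 and 894 CPM in NOD (log2 fold change 1.91, edgeR adjusted p = 0.0259). Pdhb, a subunit of pyruvate dehydrogenase, was at 131, 376 and 441 CPM (1.64, adjusted p = 0.0268). Pdhx (1.41), Idh2 (1.46), Dld (1.24) and Mdh2 (1.17) were up-regulated as well. Ogdh, the first enzyme of the 2-oxoglutarate dehydrogenase complex, fell from 318 CPM to 68.4 and 67.2 CPM (log2 fold change -2.23, edgeR adjusted p = 0.0203), and Suclg2 from 81.3 CPM to 27.4 and 24.4 CPM (-1.65, adjusted p = 0.0407). The pair Sucla2 and Suclg2, which encode the ATP-forming and GTP-forming beta subunits of the same enzyme, thus moved in opposite directions.

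Of 20 carriers, channels and translocators of the mitochondrial membranes 4 were up-regulated (beside 10.3% of all genes tested) and 0 down-regulated in edgeR, with a median of 0.52 and 12 unadjusted p under 0.05. Slc25a4, an ADP/ATP carrier, was at 617, 1486 and 1644 CPM (log2 fold change 1.34, edgeR adjusted p = 0.0253), and Tomm20, an import receptor of the outer membrane, at 73.2, 182 and 191 CPM (1.35, adjusted p = 0.0382). Slc25a31, the ADP/ATP carrier known from germ cells, had 4, 421 and 1324 counts (edgeR adjusted p = 0.0342), and Ucp2, an uncoupling protein, had 8, 338 and 656 counts (edgeR adjusted p = 0.0352). Both were near the lower limit of detection in B6, and NOD 2 stood above NOD 1 for each.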
